A study of Homo sapiens with 12 samples.

Results

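Cytosolic ribosomes are built from a small and a large subunit, each a scaffold of ribosomal RNA dressed with ribosomal proteins, whose genes are named RPS for the small and RPL for the large subunit. Most of the proteins are needed in equal amounts. The messenger RNAs of ribosomal proteins typically begin with a C followed by a run of C and T bases, the 5′ terminal oligopyrimidine (TOP) tract. Through this tract the mTORC1 pathway controls their translation. Several ribosomal proteins bind zinc, and a few are hydroxylated by iron-dependent oxygenases. Ribosomal protein genes were taken as all genes whose symbol is RPL or RPS, with an optional P, a number and an optional A, X or L with a further number. This gave 75 of 10940 genes, 48 of the large and 27 of the small subunit, among them the 4 paralogs RPL7L1, RPL22L1, RPL26L1 and RPS27L. All 75 passed the filter on low counts, so 75 of the 10459 genes tested were ribosomal protein genes.

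The cells were HepG2, an established human liver cancer line. They were grown in EMEM (the maintenance medium), in Plasmax (a medium modelled on human plasma), in Plasmax-TE (Plasmax without its trace elements) or in Plasmax-TE+Fe (Plasmax-TE with iron put back). All 4 media held 10% heat-inactivated fetal bovine serum, the media without trace elements included. The switch came 24 h after seeding in EMEM, medium was renewed after 48 h, and cells were taken 96 h after the switch. There were 3 libraries per medium, 12 in all, made from the 3′ ends of messenger RNA, with total counts from 1562125 to 2384090. Whether the 3 libraries of each medium stem from separate wells or cultures is not stated, and all p-values therefore reflect the spread among these libraries alone, which may be technical. The libraries carry consecutive numbers in 3 runs of 4, with each medium once in every run. The labels do not call these runs batches. In 3 media 1 library stood apart from the other 2, namely Plasmax replicate 3, Plasmax-TE+Fe replicate 2 and Plasmax-TE replicate 1. The mean chi-square per gene of their counts against the others of their medium was 6.04 to 7.76, while the other pairs of these media had 2.37 to 2.47. Calls without these libraries are given beside the results. All 10 hepatocyte markers looked for, among them ALB and APOA1, were counted. Of the leukocyte markers CD68 and LYZ summed to 784 to 2502 CPM (the counts of a gene scaled to a common library total), while PTPRC was not among the 10940 genes analysed, nor was any of 3 endothelial markers. COL1A1 and PDGFRB, of 4 fibroblast or stellate markers, summed to at most 26.4 CPM.

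The start sites of the genes that the comparisons turn on are shown first, since the TOP tract is the sequence feature this gene family is known for. Each line gives 30 bases of RefSeq, build GRCh38.p14, 5′ to 3′ on the gene's own strand, with 15 bases before and 15 from the annotated start. Capitals mark the unbroken run of C and T that covers the start, and a line without capitals has no such run.
RPL13A, chr19:49487593-49487622, plus strand: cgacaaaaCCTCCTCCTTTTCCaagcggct
RPL27A, chr11:8682777-8682806, plus strand: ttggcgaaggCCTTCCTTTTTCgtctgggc
RPL31, chr2:101002274-101002303, plus strand: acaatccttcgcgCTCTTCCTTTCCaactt
RPS24, chr10:78033848-78033877, plus strand: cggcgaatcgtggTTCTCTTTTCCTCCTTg
RPS7, chr2:3575245-3575274, plus strand: gtttccgCCCTCCTCCTCgcgctgtttccg
RPS28, chr19:8321481-8321510, plus strand: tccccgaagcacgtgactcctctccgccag
RPS29, chr14:49598696-49598725, minus strand: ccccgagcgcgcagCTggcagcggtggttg
RPS12, chr6:132814554-132814583, plus strand: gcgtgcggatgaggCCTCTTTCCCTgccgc
RPL36A, chrX:101390996-101391025, plus strand: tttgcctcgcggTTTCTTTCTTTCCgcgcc
A start was counted as TOP-like where its first base is C and its first 5 bases are all C or T, in any entry of the gene. Of the 61 ribosomal protein genes with an entry in the table of starts, 44 (72.1%) had such a start, against 1404 of 27305 genes (5.14%) in the whole table. The annotated starts of RPS7, RPS28 and RPS29 did not meet it. RPL37 had no entry. The letters describe the annotated starts and were not measured in these cells.

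Ribosomal protein genes together took 15.97%, 15.31% and 15.80% of all counts in the EMEM libraries (mean 15.7% ± 0.343, SD, n = 3). In Plasmax they took 15.47%, 14.54% and 17.26% (15.8% ± 1.38), in Plasmax-TE 17.75%, 17.85% and 19.29% (18.3% ± 0.864), and in Plasmax-TE+Fe 18.02%, 17.72% and 17.22% (17.7% ± 0.403). Plasmax-TE lay above EMEM and above Plasmax with no overlap of libraries, while Plasmax-TE+Fe lay above EMEM without overlap and overlapped with Plasmax through Plasmax replicate 3. Without that library the Plasmax mean was 15.004%. Within the 3 runs of library numbers, Plasmax-TE exceeded Plasmax by 2.29, 3.31 and 2.04 percentage points, and Plasmax-TE+Fe exceeded Plasmax by 2.26, 2.68 and 0.766 points. Plasmax-TE+Fe differed from Plasmax-TE by -0.0294, -0.625 and -1.27 points, and their libraries overlapped. Plasmax differed from EMEM by -0.502, -0.767 and 1.46 points, with no common direction. No test was made on these shares, since the genes were chosen with results of these data known. A share is relative to all other transcripts, and the 10 hepatocyte markers moved with the media too. Their summed level was 43947 to 48842 CPM in EMEM, 14719 to 17325 CPM in Plasmax, 28533 to 31207 CPM in Plasmax-TE and 21793 to 24114 CPM in Plasmax-TE+Fe. Their part in the ribosomal protein share was not tested. In libraries made from many cells, a change in the number of cells of a kind and a change in RNA per cell cannot be told apart.

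The large subunit took 8.35% ± 0.149 of counts in EMEM, 8.27% ± 0.537 in Plasmax, 9.65% ± 0.443 in Plasmax-TE and 9.38% ± 0.230 in Plasmax-TE+Fe (SD, n = 3). For the small subunit the shares were 7.34% ± 0.197, 7.48% ± 0.849, 8.65% ± 0.423 and 8.27% ± 0.220 in the same order. The ratio of large to small subunit counts was 1.12, 1.15 and 1.14 in EMEM, 1.14, 1.14 and 1.05 in Plasmax, 1.11, 1.13 and 1.11 in Plasmax-TE, and 1.15, 1.10 and 1.15 in Plasmax-TE+Fe. In 11 of 12 libraries it lay between 1.10 and 1.15, and Plasmax replicate 3 lay below.

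**Figure D1:**
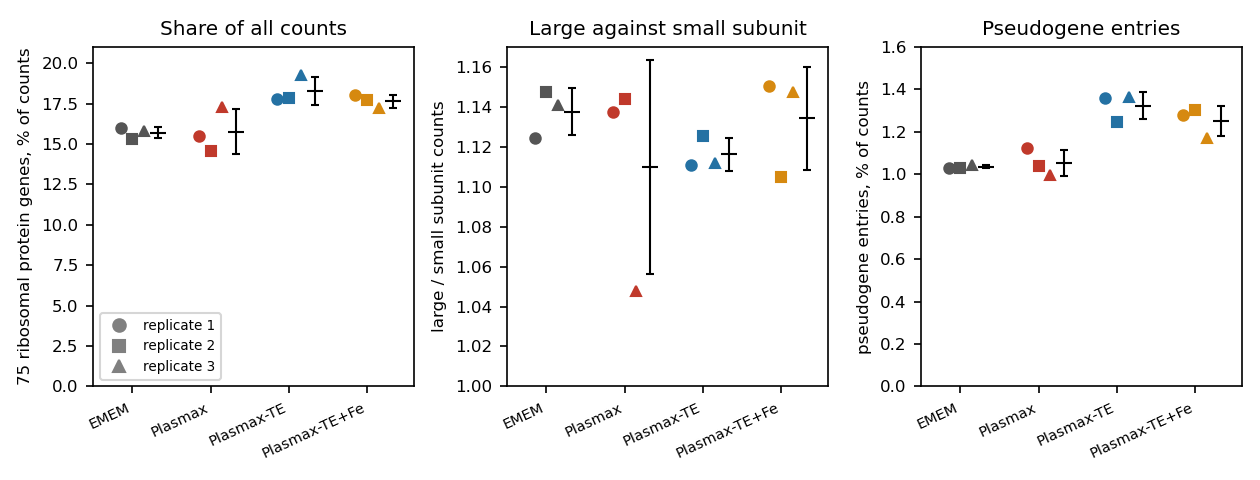
Share of all counts in the 75 ribosomal protein genes (left, percent), ratio of large to small subunit counts (middle, axis from 1) and share of counts in 115 ribosomal protein pseudogene entries (right, percent), per library in each medium, with symbols for replicates and the mean ± SD as a bar. The Plasmax-TE libraries (17.75% to 19.29%) lie above those of EMEM (15.31% to 15.97%) and Plasmax (14.54% to 17.26%), and Plasmax replicate 3 has the lowest ratio (1.05).

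Levels differed widely between the genes. The 5 highest by mean CPM over the 12 libraries were RPS27A, which is made as a fusion with ubiquitin (9928), RPS29 (9044), RPS12 (7573), RPL37A (7488) and RPL27A (7224). Among the lowest were RPL21 (4.29), RPL7 (8.71), RPS27 (13.6) and RPL3 (29.3), although RPL3 sits near the catalytic centre of every ribosome. These libraries count 3′ ends, so no division by transcript length was made. The treatment of reads that match several places is not known here, and near-identical pseudogene copies limit what a level means. The table held 115 entries of pseudogenes named after a ribosomal protein gene, with 61 of the 75 genes having at least 1. For 9 genes the pseudogene entries together exceeded the gene itself. RPL3P4 stood at 564 CPM and made up 95.1% of the sum with RPL3. The entry of RPS27P3 stood at 178 CPM (92.9% of the sum with RPS27), and RPL36AP37 at 763 CPM against 133 CPM for RPL36A. RPL21 and RPL7 were also among these 9. The pseudogene entries took 1.04% ± 0.00847 of counts in EMEM, 1.05% ± 0.0630 in Plasmax, 1.32% ± 0.0656 in Plasmax-TE and 1.25% ± 0.0703 in Plasmax-TE+Fe. Their order across the media was that of the genes.

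**Figure D2:**
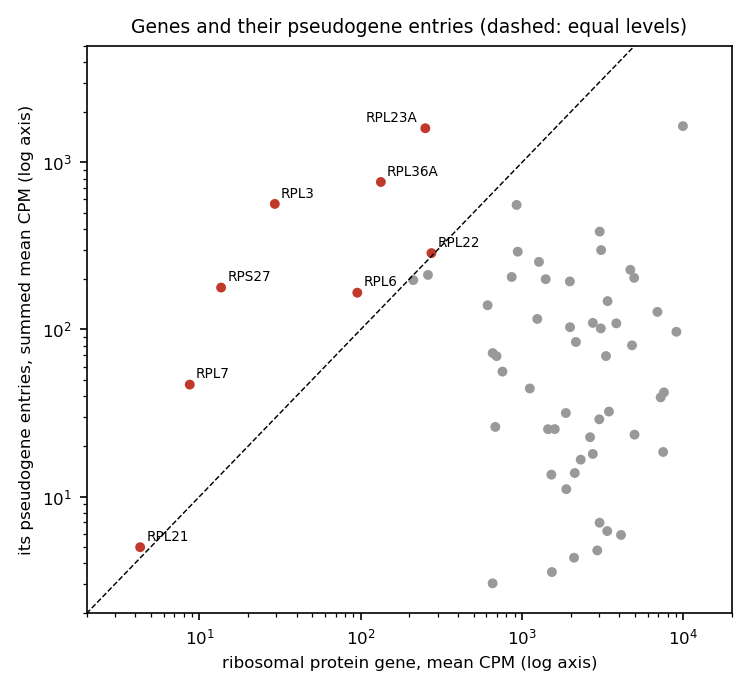
Mean CPM over 12 libraries of each ribosomal protein gene (horizontal, log axis) against the summed mean CPM of its pseudogene entries (vertical, log axis), 60 genes drawn, with equal levels dashed. The 8 labelled genes, in red, lie above the line, RPL3 and RPS27 farthest from it, and RPS27A at the right has the largest summed pseudogene level.

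Plasmax was set against EMEM to see what a plasma-like medium does to cells kept in the maintenance medium. By the quasi-likelihood test of edgeR, adjusted after Benjamini and Hochberg over 10459 genes, 16 of 75 ribosomal protein genes were called (adjusted p under 0.05), 13 lower and 3 higher in Plasmax. Among all genes 21.4% were called, 11.5% lower and 9.90% higher, so the share of ribosomal protein genes called (21.3%) was that of all genes. Their median log2 fold change was -0.08, against -0.01 over all genes. By CPM, which lack the TMM scaling factors of the edgeR test, the libraries of the media did not overlap for 15 ribosomal protein genes that were higher. Another 16 were lower, against 21.6% of all genes higher and 18.2% lower. In CPM the rises summed to 13877 and the falls to -13234, a net change of 642 CPM.

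RPL13A, a large subunit protein also known for silencing inflammatory transcripts outside the ribosome, had the largest fall in fold terms. It stood at 751, 720 and 810 CPM in EMEM, at 374, 323 and 420 CPM in Plasmax, at 609, 665 and 829 CPM in Plasmax-TE and at 678, 498 and 658 CPM in Plasmax-TE+Fe. The Plasmax libraries were the lowest 3 of the 12, and the other 9 did not overlap with them. The log2 fold change from EMEM to Plasmax was -1.08 ± 0.18 (SE, edgeR adjusted p = 1.87e-04). RPS7, a small subunit protein that also binds MDM2, stood at 288, 278 and 287 CPM in EMEM and at 213, 175 and 145 CPM in Plasmax. In Plasmax-TE it had 317, 280 and 322 CPM and in Plasmax-TE+Fe 284, 298 and 245 CPM. Again the 3 Plasmax libraries were the lowest, with a change from EMEM of -0.74 ± 0.15 on the log2 scale (edgeR adjusted p = 0.0012).

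RPS29, a zinc-binding protein of the small subunit, went from 9826, 9227 and 9529 CPM in EMEM to 6640, 6265 and 7845 CPM in Plasmax (log2 fold change -0.51 ± 0.12, edgeR adjusted p = 0.0054). RPL27A, which carries a hydroxylated histidine, went from 8462, 8206 and 8154 to 5461, 5159 and 6963 CPM (-0.54 ± 0.13, edgeR adjusted p = 0.0065). The mean of RPS29 fell by 2611 CPM and that of RPL27A fell by 2413 CPM, the largest falls in CPM among the 75 genes. RPS15A, RPS28 and RPL31 fell by 0.57 ± 0.13, 0.53 ± 0.13 and 0.52 ± 0.13 on the log2 scale. RPS23, hydroxylated on a proline in the decoding centre, fell by 0.36 ± 0.12 (edgeR adjusted p = 0.04), a call lost with 8 of the 12 single libraries left out (0.051 to 0.19). The other 5 that fell were RPL34, RPL35A, RPL15, RPS24 and RPL9, with log2 fold changes from -0.49 to -0.39, and their calls were lost with 2 to 7 of the 12 single libraries left out. They are named here to complete the count.

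The 3 that rose were RPL37, RPS12 and RPL36A. RPL37, a zinc-binding large subunit protein, stood at 2395, 2201 and 2342 CPM in EMEM and at 3502, 3306 and 3603 CPM in Plasmax. The groups were far apart, with a log2 fold change of 0.54 ± 0.12 (edgeR adjusted p = 0.0036). RPS12, a small subunit protein, went from 5706, 5503 and 5998 to 7695, 6842 and 9241 CPM (0.42 ± 0.13, edgeR adjusted p = 0.027). RPL36A, also zinc-binding, went from 107, 85.1 and 90.5 to 141, 116 and 176 CPM (0.58 ± 0.19, edgeR adjusted p = 0.034).

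The calls for RPL13A, RPS7, RPL37, RPS15A and RPS28 held with any 1 of the 12 libraries left out. Without Plasmax replicate 2 there were 6 genes higher and 4 lower, the median turned to 0.02, and RPS29, RPL27A and RPL31 were no longer called, with adjusted p of 0.051, 0.062 and 0.059. Without EMEM replicate 3 there were 8 calls, 1 higher and 7 lower. Of all genes 13.9% were called without Plasmax replicate 2 and 14.1% without EMEM replicate 3, against 21.4% with all libraries. RPS12 was not called without Plasmax replicate 3 (edgeR adjusted p = 0.11) or any 1 EMEM library (0.051 to 0.098), nor was RPL36A without EMEM replicate 2 or 3 or Plasmax replicate 1 or 3 (0.057 to 0.18). With the runs of library numbers as a block the split was 8 higher and 15 lower, against 3 and 13. Of all genes 27.8% were called with that block. With library size alone as scaling the split was 9 higher and 13 lower, with 21.6% of all genes called. The median of all genes was then 0.04.

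TOP-like starts were found in 7 of the 12 genes with an entry that were lower in Plasmax, in 2 of the 2 that were higher and in 35 of 47 others. Genes were counted as hosts where the GENCODE annotation places a small nucleolar RNA gene within their bounds on the same strand. Such hosts were 2 of the 13 lower, 2 of the 3 higher and 22 of the 59 others. RPL13A hosts 4 small nucleolar RNAs, RPS12 hosts 3, RPL27A hosts 2 and RPL37 hosts 1. No test was made of these counts.

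**Figure D3:**
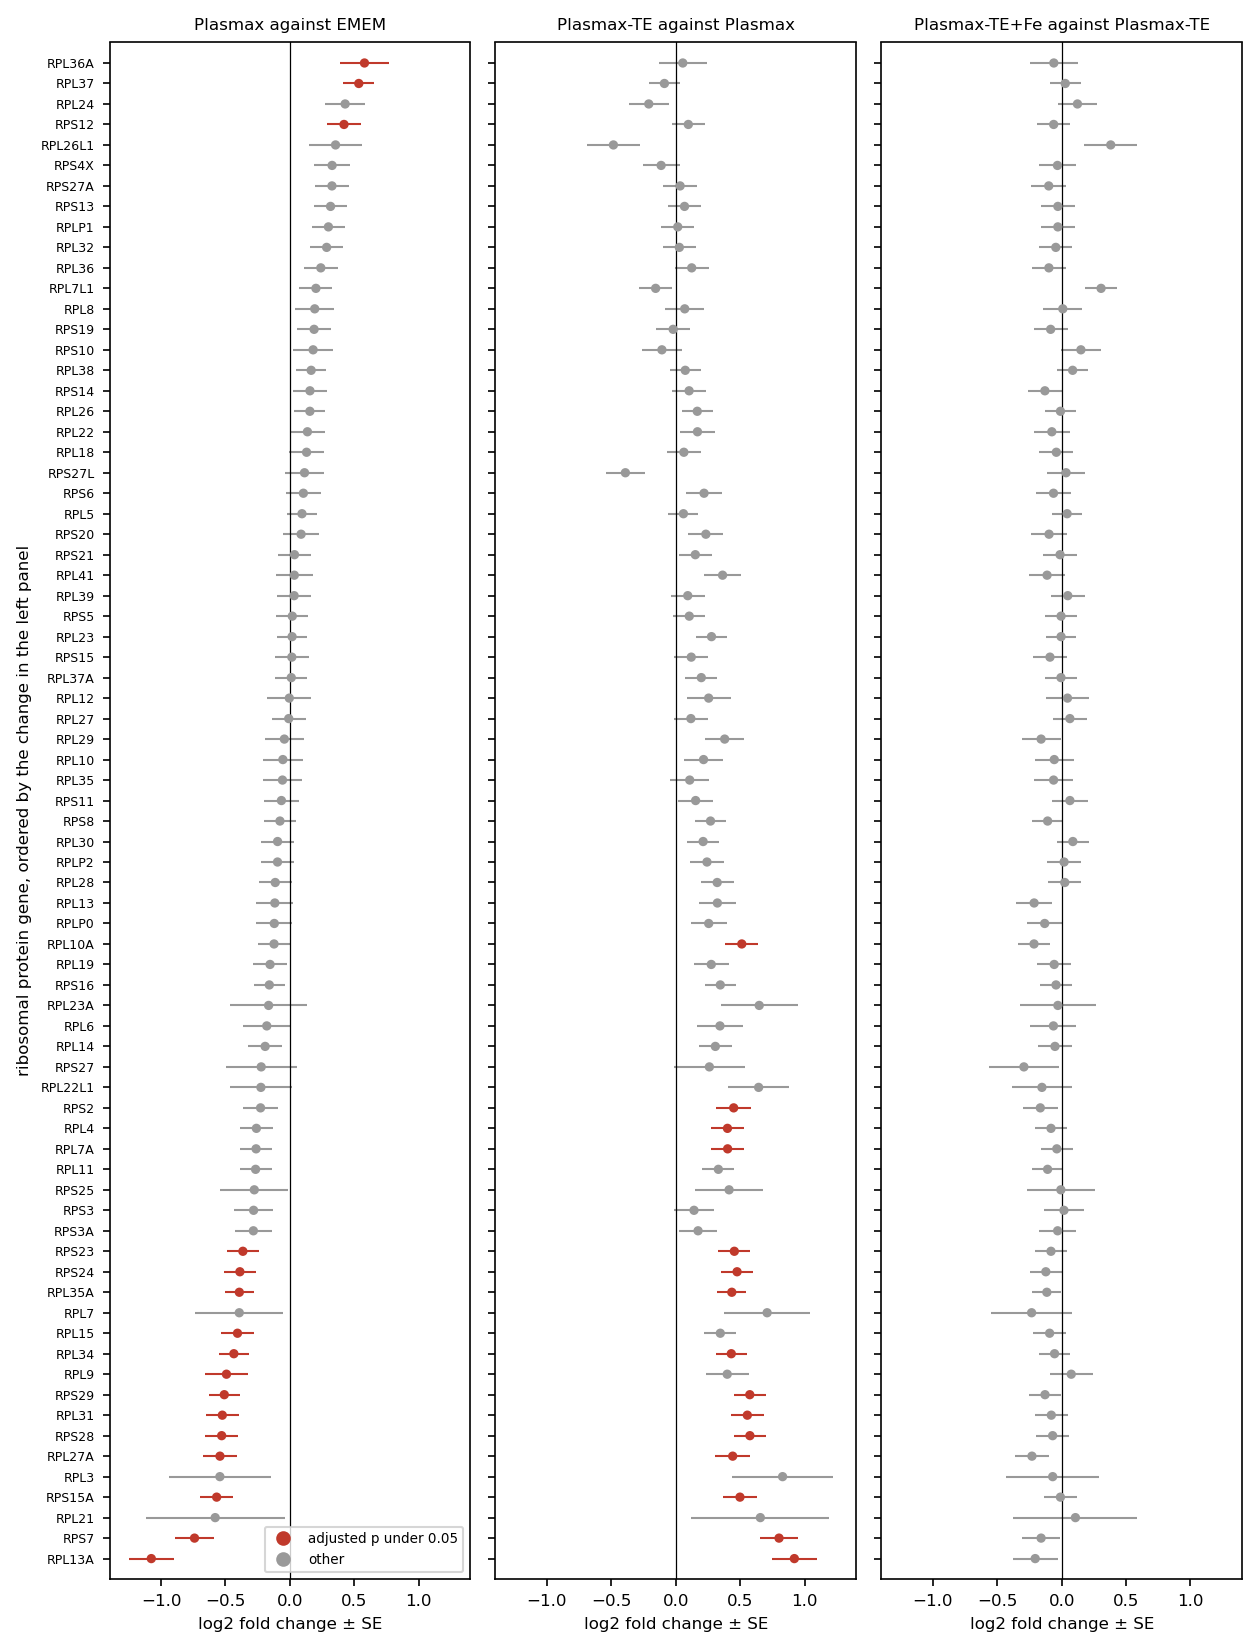
Log2 fold change ± SE of 74 ribosomal protein genes in 3 comparisons, with genes in the same order in each panel, red where the edgeR adjusted p was under 0.05. In Plasmax against EMEM the changes run from -1.08 to 0.58, in Plasmax-TE against Plasmax 66 of the 74 drawn lie above 0, and in Plasmax-TE+Fe against Plasmax-TE none is red. The first and second panels share the Plasmax libraries.

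The trace elements were the difference between Plasmax-TE and Plasmax. By the same edgeR test 15 ribosomal protein genes were higher in Plasmax-TE and 0 were lower. Of all genes 5.61% were higher and 5.63% lower. In every comparison the median SE was 0.13 for the 75 genes and 0.23 over all genes. A change of a given size is therefore called more readily in the 75 genes. The 75 genes had a median log2 fold change of 0.25 against 0.02 over all genes, and 67 of them were above 0. In 28 genes all Plasmax-TE libraries lay above all Plasmax libraries (14.98% of all genes), and in 3 below (15.4%). The large subunit gave 8 of the 15 (median 0.27 over 48) and the small subunit 7 (median 0.17 over 27). These values share the Plasmax libraries with the comparison above, so a high or low Plasmax library moves both in opposite directions.

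RPS7 rose by 0.80 ± 0.15 on the log2 scale (177 ± 33.8 to 306 ± 22.6 CPM, mean ± SD, n = 3; edgeR adjusted p = 0.0017) and RPL13A by 0.92 ± 0.18 (373 ± 48.4 to 701 ± 114 CPM; edgeR adjusted p = 0.0022). RPS28 stood at 676, 653 and 626 CPM in Plasmax and at 927, 1039 and 930 CPM in Plasmax-TE, with 849, 867 and 1002 CPM in EMEM. It rose by 0.58 ± 0.13 (edgeR adjusted p = 0.0061), with no overlap. RPL31, a large subunit protein near the exit of the peptide tunnel, had 2273, 2118 and 2532 CPM in Plasmax and 3237, 3312 and 3587 CPM in Plasmax-TE (0.56 ± 0.13, edgeR adjusted p = 0.0085). In EMEM it had 3234, 3086 and 3309 CPM. RPL10A, which was not called against EMEM, went from 1894, 1779 and 2208 to 2877, 2743 and 2759 CPM (0.51 ± 0.13, edgeR adjusted p = 0.013). RPS29 rose by 0.57 ± 0.12 to 10034, 10052 and 10739 CPM. It accounted for 13.2% of the net gain of 25444 CPM, RPS24 for 8.48% and RPL27A for 8.18%, so these 3 made up 29.9% of it. RPS15A and RPL35A rose by 0.50 ± 0.13 and 0.43 ± 0.11, RPS23 by 0.45 ± 0.12 and RPL27A by 0.44 ± 0.13. RPS24, RPL34, RPS2, RPL7A and RPL4 complete the 15, with 0.40 to 0.48 and calls lost with 3 to 10 of the single libraries left out.

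Calls for RPS7, RPL13A, RPS29 and RPS28 held with any 1 library left out, but the count depended on single libraries. Dropping Plasmax replicate 2 left 4 and dropping Plasmax replicate 1 left 8, with medians of 0.14 and 0.25. Dropping Plasmax-TE replicate 2 left 7 and dropping Plasmax-TE replicate 3 left 6, with medians of 0.25 and 0.15. The share of all genes called fell too, from 11.2% to 4.46%, 7.29%, 7.73% and 8.16% in the same order. Of the genes given with values, the adjusted p without Plasmax replicate 2 was 0.073 for RPL31, 0.097 for RPL10A, 0.12 for RPS15A, 0.09 for RPL35A, 0.11 for RPS23 and 0.2 for RPL27A. The call was also lost for RPL10A without Plasmax replicate 1 (0.055), for RPS15A without Plasmax-TE replicate 3 (0.079), and for RPL35A and RPS23 without Plasmax replicate 1 or Plasmax-TE replicate 2 or 3 (0.054 to 0.084). That of RPL27A was lost with 8 of the 12 single libraries left out (0.052 to 0.2). A fit on only these 6 libraries called 7, with 10.1% of all genes called. Without both Plasmax-TE+Fe replicate 2 and Plasmax-TE replicate 1 the fit to the other 10 libraries called 22 higher and 0 lower. Of all genes 11% were called in that fit. With the runs of library numbers as a block 22 were higher and 1 was lower, with 17.8% of all genes called.

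**Figure D4:**
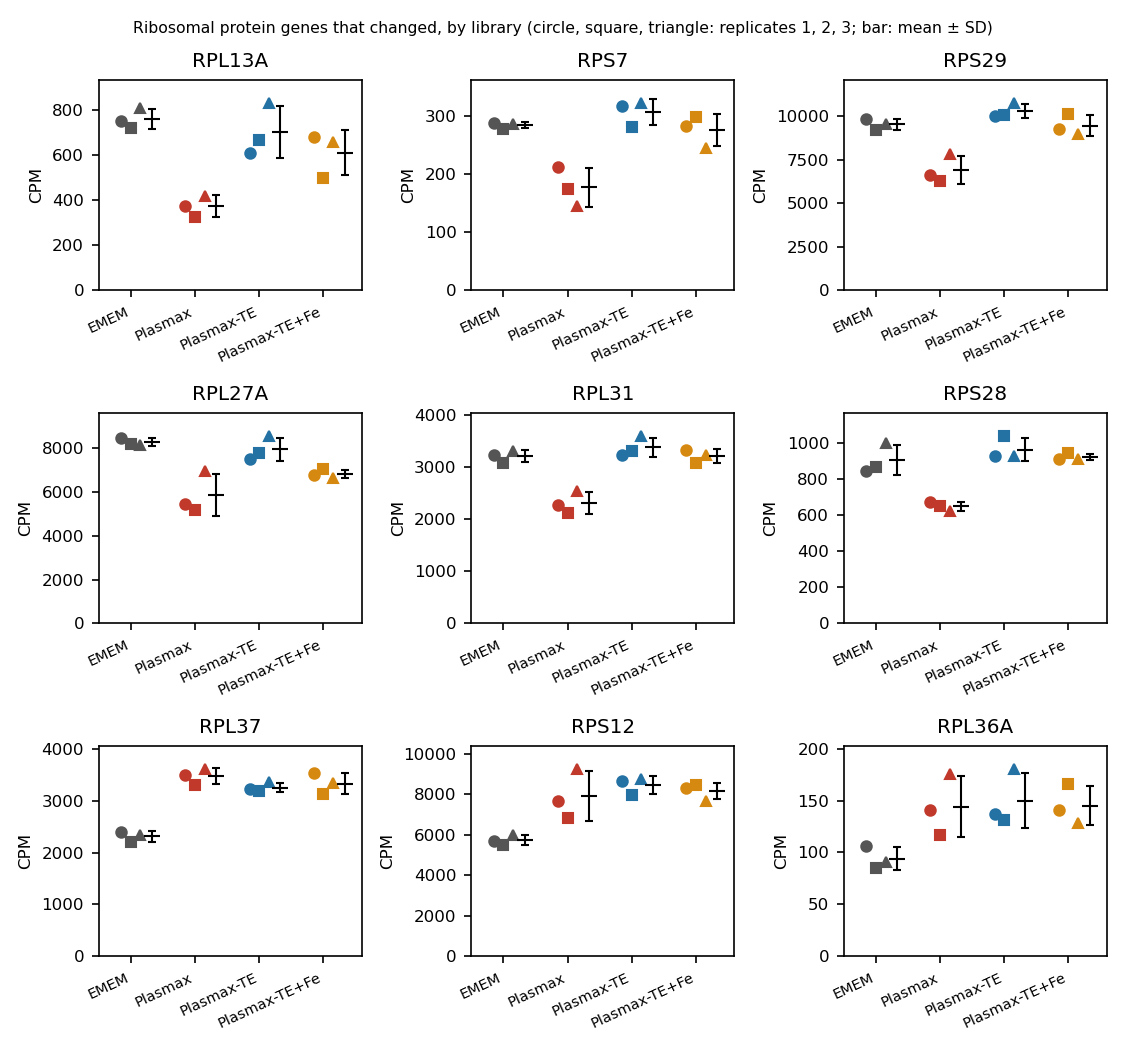
CPM of 9 ribosomal protein genes in each library by medium, with replicates as circle, square and triangle and the mean ± SD as a bar. The Plasmax libraries are the lowest for RPL13A, RPS7 (145 to 213 CPM), RPS29, RPL31 and RPS28, for RPL27A Plasmax replicate 3 overlaps with Plasmax-TE+Fe, and RPL37, RPS12 and RPL36A are lowest in EMEM.

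Iron alone was added back in Plasmax-TE+Fe, which was set against Plasmax-TE. None of the 75 genes was called by edgeR, against 0.258% of all genes (0.0861% higher and 0.172% lower), and DESeq2 and limma-voom also called 0. At an unadjusted p under 0.05 there was 1, RPL7L1, a paralog of RPL7 (304, 264 and 268 CPM in Plasmax-TE, 332, 376 and 330 CPM with iron, log2 fold change 0.31 ± 0.13, edgeR adjusted p = 0.45). The median log2 fold change was -0.06 against 0.00 over all genes, and 55 of 75 were below 0. The libraries did not overlap for 3 genes higher (6.91% of all genes) and 7 lower (6.52%). The median turned to 0.02 without Plasmax-TE replicate 3. The number called was also 0 without both Plasmax-TE+Fe replicate 2 and Plasmax-TE replicate 1. With the runs of library numbers as a block it was 0 as well, while 1.45% of all genes were called. In that edgeR fit 3 of the 75 had an unadjusted p under 0.05. With a median SE of 0.13 per gene, small changes were not detectable.

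Between Plasmax-TE+Fe and Plasmax 2 genes were higher, RPS7 by 0.64 ± 0.15 (edgeR adjusted p = 0.034) and RPL13A by 0.72 ± 0.18 (0.049), against 1.20% of all genes called, 0.507% higher and 0.698% lower. The median was 0.19 against 0.01 over all genes, and 63 of 75 lay above 0. In 27 genes the Plasmax-TE+Fe libraries all lay higher (8.67% of all genes) and in 1 lower (9.70%). Without both Plasmax-TE+Fe replicate 2 and Plasmax-TE replicate 1 there were 7 calls, with 1.63% of all genes called. The calls for RPS7 and RPL13A were close to the threshold. Without Plasmax replicate 2 or any 1 of EMEM replicates 1 and 3 and Plasmax-TE+Fe replicates 1 and 3 neither was made, with adjusted p from 0.052 to 0.3. RPL13A alone was also lost without EMEM replicate 2, Plasmax replicate 1 or Plasmax-TE replicate 2 (0.068 to 0.14), and RPS7 alone without Plasmax replicate 3 or Plasmax-TE+Fe replicate 2 (0.12 and 0.075).

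Against EMEM the media without trace elements each had 2 genes higher, RPS12 and RPL37. In Plasmax-TE, RPS12 had 8674, 7960 and 8785 CPM (log2 fold change 0.52 ± 0.13, edgeR adjusted p = 0.024) and RPL37 3219, 3177 and 3354 CPM (0.45 ± 0.12, 0.039). In Plasmax-TE+Fe, RPS12 had 8305, 8464 and 7703 CPM (0.46 ± 0.13, 0.03) and RPL37 3525, 3120 and 3331 CPM (0.47 ± 0.12, 0.016). Of all genes 4.81% were called for Plasmax-TE (1.62% higher, 3.19% lower) and 9.65% for Plasmax-TE+Fe (3.67% higher, 5.98% lower). Libraries did not overlap in CPM for 42 ribosomal protein genes higher (14.6% of all genes) and 0 lower (10.7%) in Plasmax-TE. In Plasmax-TE+Fe these were 40 higher (16.1%) and 3 lower (12.8%). CPM lack the TMM factors of the test. With library size alone as scaling, the median of all genes was 0.047 for Plasmax-TE and 0.063 for Plasmax-TE+Fe. Genes with little scaled change thus count as higher too, such as RPL35A in Plasmax-TE (0.04 ± 0.11, edgeR adjusted p = 0.89). With TMM factors the medians of the 75 genes were 0.15 each, against 0.00 and 0.01 over all genes, and 65 and 56 of the 75 lay above 0. All comparisons with EMEM share its 3 libraries, and RPL37 and RPS12 were higher than in EMEM in each of the 9 Plasmax-based libraries. Both calls in Plasmax-TE were lost with any 1 EMEM library dropped, and with Plasmax-TE replicate 2 or 3 dropped (edgeR adjusted p from 0.054 to 0.17). RPL37 was also not called there without Plasmax replicate 1 or Plasmax-TE+Fe replicate 3 (0.052 and 0.057). In Plasmax-TE+Fe both were lost without EMEM replicate 2 or 3 or Plasmax-TE+Fe replicate 1 or 3 (0.054 to 0.12), and RPS12 also without EMEM replicate 1 or Plasmax-TE+Fe replicate 2 (0.1 and 0.052). Over the 4 media together edgeR called 14 of the 75, against 17.97% of all genes.

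Plasmax replicate 3 stood apart from the other Plasmax libraries in these genes. It was the highest of the 3 in 44 of 75 genes. Its level over the mean of the other Plasmax libraries had a median of 1.19 for the small subunit (above 1 in 21 of 27) and 1.05 for the large subunit (28 of 48). The median coefficient of variation was 11.8% in Plasmax, against 5.53% in EMEM, 6.22% in Plasmax-TE and 5.06% in Plasmax-TE+Fe, while counting alone would give 1.67% to 1.81%. In the rest of each subunit its level was at or below theirs, and for some genes far below. RPL3 had 8 counts there against 48 and 54 in Plasmax replicates 1 and 2, RPS25, a small subunit protein, had 198 against 498 and 469. RPL23A, of the large subunit, had 75.9 CPM there against 286 and 231 CPM. RPL3 and RPL23A are among the 9 genes exceeded by their pseudogene entries. For RPL23A these entries summed to 1599 CPM over the 12 libraries on average, against 251 CPM for the gene. Whether reads were divided differently between genes and pseudogenes in Plasmax replicate 3 was not tested. RPL23A and RPS25 were chosen after their values were seen. Of genes with at least 20 CPM, 3 of 71 ribosomal protein genes (4.23%) and 179 of 6466 genes in all (2.77%) were at under 50% of the other libraries in it. Without this library Plasmax against EMEM gave 1 higher and 14 lower (median -0.11), and Plasmax-TE against Plasmax 20 higher (median 0.31). Of all genes 18.8% and 9.33% were then called.

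**Figure D5:**
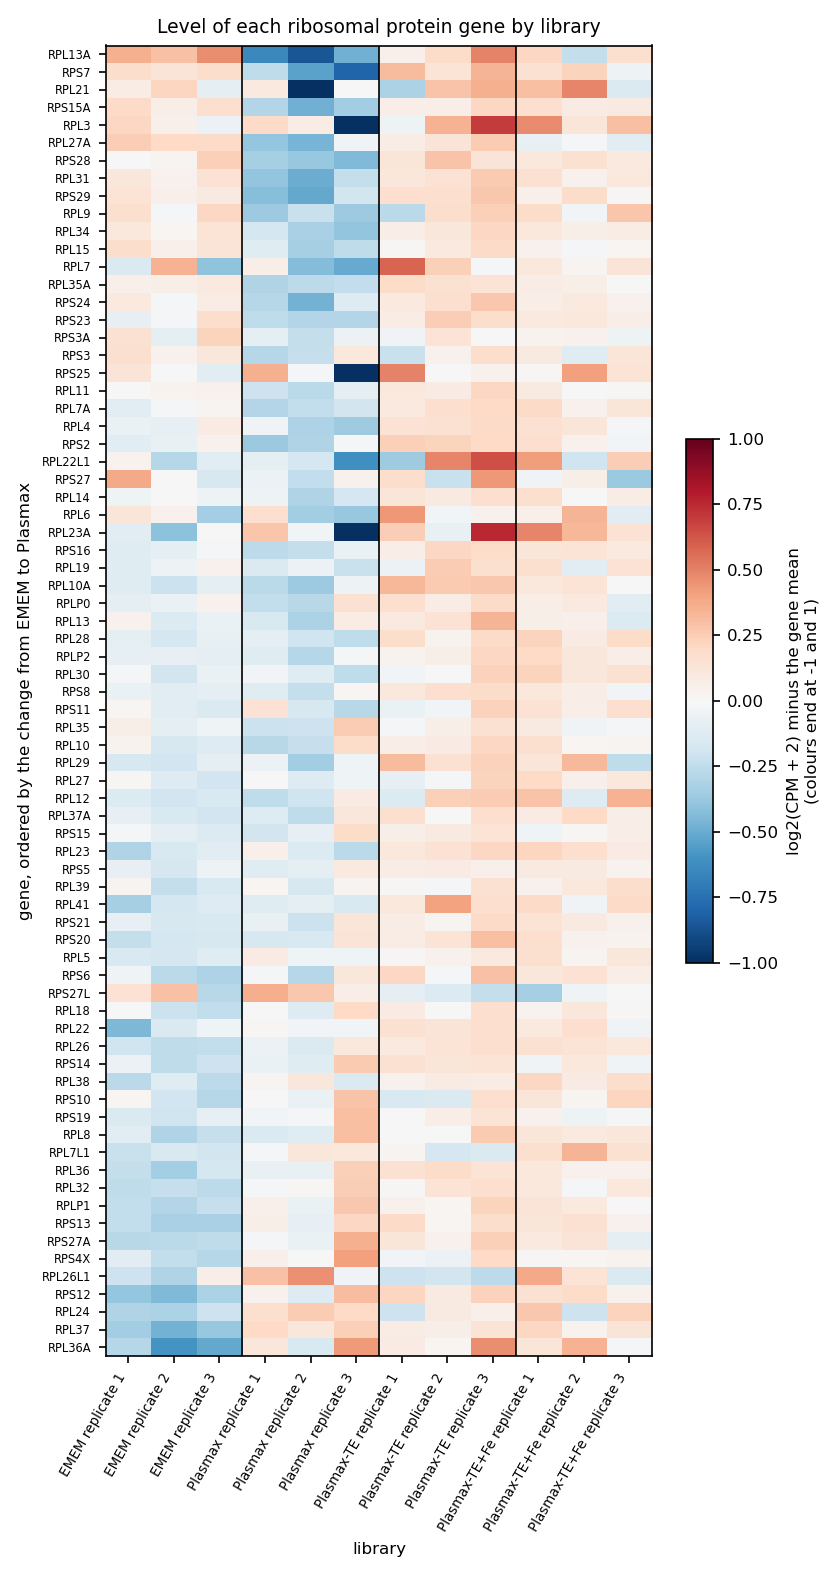
Log2(CPM + 2) of 74 ribosomal protein genes, each minus its mean over the 12 libraries, genes ordered by the change from EMEM to Plasmax. Blue in the Plasmax columns at the top marks genes such as RPL13A and RPS7, blue in the EMEM columns at the bottom marks RPL37 and RPL36A, and the column of Plasmax replicate 3 holds the dark blue cells of RPL3, RPL23A and RPS25. Colours end at -1 and 1.

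The paralogs showed no called change in any comparison. RPS27L, a p53 target closely related to RPS27, stood at 446, 418 and 362 CPM in Plasmax and 322, 314 and 293 CPM in Plasmax-TE (log2 fold change -0.39 ± 0.15, edgeR adjusted p = 0.098), while RPS27 itself had 13.6 CPM on average. RPL26L1 stood at 37.1, 41.8 and 29.2 CPM in Plasmax and 25.7, 26.0 and 24.6 CPM in Plasmax-TE (-0.48 ± 0.21, 0.14), and its parent RPL26 had 0.17 ± 0.12. RPL22L1 ranged from 58.4 to 142 CPM over the 12 libraries, with 0.64 ± 0.24 in the same comparison (0.085), against 0.17 ± 0.14 for RPL22. The 3 stalk proteins, which recruit elongation factors, did not pass the test in any comparison with all libraries. From EMEM to Plasmax the log2 fold changes were -0.12 ± 0.14 for RPLP0, 0.30 ± 0.13 for RPLP1 and -0.10 ± 0.13 for RPLP2. RPS6, the S6 kinase substrate, had 0.10 ± 0.14, RPL8, hydroxylated on a histidine, 0.19 ± 0.15, and the MDM2-binding RPL5 and RPL11 had 0.09 ± 0.12 and -0.27 ± 0.12. The edgeR adjusted p was 0.11 for RPLP1 and 0.13 for RPL11. From Plasmax to Plasmax-TE, RPL11 had 0.33 ± 0.12 (edgeR adjusted p = 0.089). Without Plasmax replicate 3, RPLP0 (0.44 ± 0.12, edgeR adjusted p = 0.023) and RPL11 (0.41 ± 0.12, 0.04) were called higher in Plasmax-TE than in Plasmax.

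Pseudogene entries did not always move like their genes. RPL13AP5 had a log2 fold change of 0.08 ± 0.17 from EMEM to Plasmax where RPL13A had -1.08, and RPS7P10 had -0.55 ± 0.17 where RPS7 had -0.74. RPL37P2 had 0.53 ± 0.14, as RPL37 had 0.54. With pseudogene counts added to the gene, an alternative chosen after seeing the data, RPL13A had -0.85 ± 0.16 (edgeR adjusted p = 0.00089), RPL37 0.53 ± 0.12 (0.0033) and RPL36A 0.41 ± 0.14 (0.043). RPS27 was then called lower in Plasmax (-0.52 ± 0.15, 0.016), where the gene alone had -0.22 ± 0.28. From Plasmax to Plasmax-TE+Fe, RPL13A was no longer called in this setting (adjusted p = 0.1).

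Other genes of ribosome production were followed in lists chosen with results of these data known. Of 38 ribosome biogenesis factors 16 were higher and 1 was lower in Plasmax than in EMEM, with a median log2 fold change of 0.41, against 9.90% higher and 11.5% lower over all genes. MYBBP1A, a nucleolar regulator, rose by 1.01 ± 0.20, RRP12 by 0.95 ± 0.20 and SDAD1 by 0.70 ± 0.16, both pre-ribosome export factors, while NOB1, the nuclease that trims the small subunit RNA, fell by 0.78 ± 0.18. From Plasmax to Plasmax-TE 1 rose and 3 fell (median -0.22), against 5.61% and 5.63% of all genes. NOB1 rose by 0.77 ± 0.18, and the snoRNP proteins NOP58, NOP56 and DKC1 fell by 0.87 ± 0.23, 0.55 ± 0.15 and 0.53 ± 0.17. In Plasmax-TE+Fe against EMEM 9 were higher and 0 lower (median 0.42), against 3.67% and 5.98% of all genes. The ribosomal protein genes had medians of -0.08, 0.25 and 0.15 in these 3 comparisons.

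Of 25 translation initiation factors 6 were higher in Plasmax than in EMEM and 0 lower (median 0.20), against 9.90% and 11.5% of all genes, and 0 were higher and 2 lower in Plasmax-TE than in Plasmax (median -0.18), against 5.61% and 5.63%. From EMEM to Plasmax, EIF5B, which joins the subunits, rose by 0.93 ± 0.13 and EIF4E, the cap-binding protein, by 0.83 ± 0.18. Of 16 other TOP messenger RNAs 2 were higher in Plasmax than in EMEM, NAP1L1 and EIF3H, and 0 lower. In Plasmax-TE 3 were higher than in Plasmax, the elongation factor EEF2 (0.41 ± 0.13), BTF3 and HNRNPA1, and 0 lower. The shares of all genes were 9.90% and 11.5% in the first comparison, and 5.61% and 5.63% in the second. Of 21 genes of mTORC1 and TOP control 2 were higher in Plasmax than in EMEM, EIF4EBP1 and RHEB, and 1 was lower, EIF4EBP2. Over all genes 9.90% were higher and 11.5% lower. From Plasmax to Plasmax-TE 1 of the 21 was higher and 2 were lower, against 5.61% and 5.63% of all genes. The mTORC1 inhibitors DDIT4 and SESN2 fell by 1.38 ± 0.27 and 0.80 ± 0.22, and EIF4EBP2, which holds EIF4E, rose by 0.81 ± 0.20. Of 12 genes of RNA polymerase I and ribosomal RNA transcription 4 were higher and 2 lower in Plasmax than in EMEM (9.90% and 11.5% of all genes). POLR1A had 0.61 ± 0.16 and POLR1D -0.72 ± 0.16. The calls included POLR2K (higher) and POLR2H (lower), which are not particular to polymerase I.

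Among 11 snoRNA host genes that encode no ribosomal protein, 4 were higher and 2 lower in Plasmax than in EMEM, and 4 were higher and 0 lower in Plasmax-TE than in Plasmax. Of all genes 9.90% were higher and 11.5% lower in the first comparison, and 5.61% and 5.63% in the second. SNHG7 fell by 1.01 ± 0.17 and then had 1.14 ± 0.17, and ZFAS1 rose by 0.65 ± 0.13 from EMEM to Plasmax. Of 71 mitochondrial ribosomal protein genes 8 were higher and 4 lower in Plasmax than in EMEM (median 0.01), against 9.90% higher and 11.5% lower over all genes, with MRPS10 at 0.99 ± 0.14 and MRPS15 at -0.93 ± 0.18. Of 6 zinc-binding ribosomal proteins 2 were higher in Plasmax than in EMEM (RPL37, RPL36A) and 1 was lower (RPS29). Of 6 ribosomal proteins outside the symbol rule, FAU was among 2 that were higher there (0.49 ± 0.15), and 0 were lower. Both counts stand against 9.90% higher and 11.5% lower over all genes. In the list of hydroxylases and the recycling factor ABCE1, OGFOD1, the iron-dependent prolyl hydroxylase of RPS23, rose from 72.0 to 122 CPM from EMEM to Plasmax (0.71 ± 0.17) and was at 81.5 CPM in Plasmax-TE (-0.57 ± 0.16, edgeR adjusted p = 0.03). RIOX1 and RIOX2, the hydroxylases of RPL8 and RPL27A, had -0.04 ± 0.27 and 0.03 ± 0.21 from EMEM to Plasmax. With iron added back to Plasmax-TE, OGFOD1 had 0.21 ± 0.17 (edgeR adjusted p = 0.77), and 0 genes of any of these lists were called.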

How the data were processed

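RNA of HepG2 cells in 4 media was counted in 12 QuantSeq 3′ libraries. What the authors deposited are raw, unscaled counts for each gene. Per the submitters' processing notes the build was hg19, and the tools named there are STAR 2.7.5b, featureCounts 1.6.3, limma 3.40.6, cutadapt 1.16 and FastQC 0.72. The annotation and the handling of reads matching several places are not given in the sources used here. Of 10994 entries, 54 repeated an identifier with identical counts and were dropped. No gene had under 4.04 CPM in its third-highest library, so the deposited table lacks genes of low counts. A symbol was missing in 506 entries, and the reference gave one for 255 genes. One count was worth 0.419 to 0.640 CPM.

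In R 4.3.3 with edgeR 4.0.16, filterByExpr removed 481 genes and left 10459. TMM factors scaled the libraries in the tests and log2 fold changes. CPM values, and with them the counts of genes without overlap of libraries, use library totals without these factors. All 12 entered 1 quasi-likelihood model of the 4 media with 8 residual degrees of freedom, and tests were two-sided. The standard error is the absolute log2 fold change over the square root of F. An exact test of 3 against 3 cannot go below p = 0.1. No library pair of a medium had identical counts. The fit was tested on simulated data. The genes, lists and naming rule were chosen with earlier results of these data known. The rule names, per comparison, up to 8 called genes with the lowest p, then paralogs and their parents, the 5 highest and 5 lowest genes, and RPS6, RPL5, RPL11, RPS23, RPL27A, RPL8 and the stalk proteins. It also names up to 4 called genes of each other list. Not all are described, and 1 gene that counts among the 75 is not reported or drawn individually here. Alternatives were RLE factors, library size alone, factors without ribosomal protein genes, DESeq2 1.42.0, limma-voom 3.58.1, other filters, a replicate block, a block of library-number runs, left-out libraries, and pseudogene counts added to the gene. The deviations of same-numbered libraries from their medium means had r from -0.43 to 0.17 over 18 pairs, 4 over 0.1. Libraries of the same run of numbers had r from 0.025 to 0.53 (9 of 18 over 0.1). These groupings overlap, since only Plasmax-TE+Fe has replicate numbers that do not follow the runs. The model without a block was kept as the main one because it was set as such, and the calls with the block of runs are given as an alternative.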

Additional observations from a re-analysis of the deposited data

How the results depend on the processing

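Of 37 gene calls in the 5 comparisons that made any, 0 reversed under the alternatives run, 26 held under all alternatives other than a single left-out library, and 9 held with each single library left out. Leaving out 1 library at a time moved the number of ribosomal protein genes called between 8 and 17 for Plasmax against EMEM. The share of all genes called moved between 13.9% and 24.7% there. For Plasmax-TE against Plasmax the number moved between 4 and 20 (4.46% to 14.7% of all genes). For Plasmax-TE+Fe against Plasmax it moved between 0 and 3 (0.29% to 1.59%). Against EMEM it moved between 0 and 5 for Plasmax-TE (2.44% to 6.34%) and for Plasmax-TE+Fe (5.7% to 11.5%). Over the 4 media together it moved between 5 and 18. For the 4 media together the share of all genes is given here only for the main fit (17.97%). Counts of the other fits over the 4 media are therefore no result about ribosomal protein genes in particular. The number called stayed at 0 for Plasmax-TE+Fe against Plasmax-TE (0% to 2.14% of all genes). The median log2 fold change moved between -0.11 and 0.0236, 0.14 and 0.31, 0.12 and 0.27, 0.095 and 0.22, and 0.10 and 0.19 in the same order of comparisons, and between -0.11 and 0.0172 for iron added to Plasmax-TE. With library size alone as scaling the calls were 22 for Plasmax against EMEM (21.6% of all genes) and 6 for Plasmax-TE+Fe against Plasmax (1.31%). Against EMEM they were 11 for Plasmax-TE (4.73%) and 10 for Plasmax-TE+Fe (10.1%), and 27 over the 4 media. For Plasmax-TE+Fe against Plasmax, RLE factors gave 1 (1.2% of all genes), DESeq2 gave 5 (1.48%) and added pseudogene counts gave 1 (1.2%). DESeq2 gave 4 for Plasmax-TE+Fe against EMEM (9.25%). A fit on only the 6 libraries compared gave 7 for Plasmax-TE against Plasmax (10.1% of all genes). It gave 0 for Plasmax-TE+Fe against Plasmax (0.773%) and 5 for Plasmax-TE+Fe against EMEM (10.1%). Without both Plasmax-TE+Fe replicate 2 and Plasmax-TE replicate 1 the calls were 7 for Plasmax-TE+Fe against Plasmax (1.63% of all genes). Against EMEM they were 5 (median 0.22) for Plasmax-TE (6.16%) and 6 for Plasmax-TE+Fe (14.1%), and 26 over the 4 media. A block of the runs of library numbers gave 23 for Plasmax against EMEM (8 higher, 15 lower). Of all genes 27.8% were called there, against 21.4% without the block. For Plasmax-TE against Plasmax it gave 23 (22 higher, 1 lower), with 17.8% of all genes called (11.2% without). It gave 10 for Plasmax-TE+Fe against Plasmax (3.56% of all genes, 1.20% without). Against EMEM it gave 9 for Plasmax-TE (7.93%, 4.81% without) and 8 for Plasmax-TE+Fe (15%, 9.65% without). For Plasmax-TE+Fe against Plasmax-TE it gave 0 (1.45%, 0.258% without). Over the 4 media it gave 31. The replicate block gave 16 for Plasmax against EMEM (19.9% of all genes) and 13 for Plasmax-TE against Plasmax (9.79%, RPL4 and RPL7A lost). It gave 0 for Plasmax-TE+Fe against Plasmax-TE (0.182% of all genes) and 2 for Plasmax-TE+Fe against Plasmax (1%). Against EMEM it gave 2 for Plasmax-TE (4.21%) and 2 for Plasmax-TE+Fe (8.85%), and 13 over the 4 media. Of same-numbered libraries 4 of 18 pairs correlated over 0.1, while 9 of 18 pairs of the same run of library numbers did, with r up to 0.53. These groupings overlap, since EMEM, Plasmax and Plasmax-TE libraries of the same replicate number are also of the same run. The cause of the moves in the calls was not tested. Precision was limited by the spread between libraries more than by counting.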
